A study of Mus musculus with 7 samples.

Results

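The genes described here are 10 markers of the surface ectoderm and of simple epithelia, read from a table of 25965 genes by their symbols: the keratins Krt8, Krt18 and Krt19, the transcription factors Grhl2, Grhl3, Tfap2a, Trp63 and Dlx5, the ligand Wnt6 and the splicing factor Esrp1. All 10 were in the table and all 10 passed the filter on low values. RNA-seq had been run on the tail end of female FVB/N mouse embryos at E9.5, cut behind the newest somite, in 4 libraries from embryos homozygous for MommeD1 (called null here) and 3 libraries from Smchd1 +/+ embryos (called WT). MommeD1 is a null allele of Smchd1 per the series' design text, and Smchd1 encodes a chromatin protein needed for silencing of the inactive X chromosome. The labels call the tissue presomitic or postsomitic mesoderm. The design text names 3 null samples and the labels 4. The allele is present in every cell of the embryo, so all cell types of the piece carry it. Which of them it affects was not tested.

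The surface ectoderm is the single sheet of epithelium that covers the embryo and later forms the epidermis. At this stage it meets the neural folds at the tail, where the neural tube is still closing, and grainyhead-like factors of the ectoderm are known to be needed for that closure. Keratins 8 and 18 pair as type II and type I chains to form the first intermediate filaments of embryonic epithelia. They are also made by endoderm and notochord, so these keratins mark epithelium in general, while Trp63, Tfap2a and Grhl3 are closer to ectoderm. Since the piece was sequenced whole, fewer cells of a type and less RNA per cell cannot be told apart.

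Listed genes had 22137823 to 23847381 reads per library in null and 19622596 to 23548995 in WT. The deposited log2 values lay higher in null by a median of 0.16 over the 13997 genes kept. Each library was therefore shifted to the same median of its autosomal genes, and the results are called scaled RPM, or scaled log2 change for differences. Smchd1, the check of the labels, averaged 31.4 ± 2.63 scaled RPM in null (SD, n = 4) and 99.6 ± 4.39 in WT (SD, n = 3), with a scaled log2 change of -1.67 (limma adjusted p = 9.54e-05). The presomitic gene Tbx6 lay at 34.3 to 45.9 scaled RPM in null and 39.0 to 39.2 in WT, so the labelled tissue carried its marker in every library. Libraries are lettered within each group. WT library B stands apart for several gene groups here. Presomitic genes are among them, with WT B lowest in 6 of the 11 measured and highest in 2. The change of each of the 10 genes is given with and without WT library B.

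None of the 10 genes passed the test between null and WT. The count was 0 higher and 0 lower at an adjusted p under 0.05 (limma, Benjamini-Hochberg over all genes kept), where 0.05% of all genes were called higher, 0.00714% lower and 0.0572% in either direction. At an unadjusted p under 0.05 there was 1 of the 10, Dlx5, higher in null, against 7.29% of all genes called higher at that level. On the deposited scale 0 of the 10 passed, against 0.0429% of all genes. On that scale 5 of the 10 (Krt19, Grhl2, Wnt6, Dlx5 and Esrp1) were higher and 0 lower at an unadjusted p under 0.05, against 13.9% of all genes higher and 0.114% lower. All 10 changes were then above 0, with a median of 0.39, against a median of 0.16 over all genes. Voom on whole reads also called 0 of the 10 at the adjusted threshold. The scaled log2 change was above 0 in 8 of the 10, against 42.5% of all genes, with a median of 0.20 against -0.03 for all genes. Krt8 and Krt18 were the 2 below 0 on the scaled values, and both were just above 0 on the deposited scale, at 0.02 and 0.06. Without WT library B the median of the 10 was 0.04, and 0 passed, against 0.0643% of all genes higher and 0.0714% in either direction. At an unadjusted p under 0.05, 0 of the 10 were then higher or lower, against 4.77% of all genes higher and 2.12% lower. On the deposited scale without WT library A, 5 of the 10 passed, but so did 30% of all genes.

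**Figure D1:**
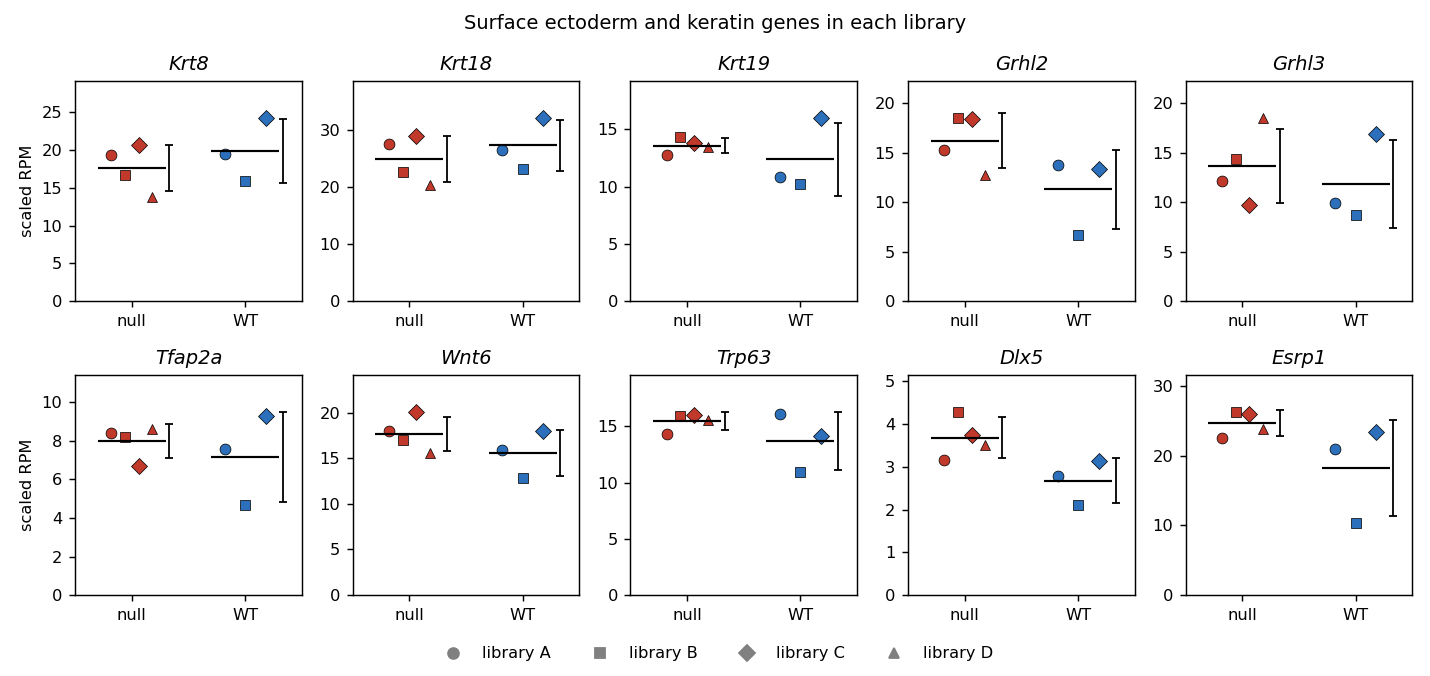
Scaled RPM (library-scaled reads after setting all libraries to one autosomal median) of each of the 10 genes, null left and WT right, 1 symbol per library with the group mean as a line and the SD as a bar. WT library B is the lowest point in 8 of the 10 panels, and Dlx5 is the only gene whose groups do not overlap.

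Krt8 and Krt18 are neighbours on chromosome 15. Krt8 lies at chr15:101996711-102004342 on the minus strand and Krt18 at chr15:102028216-102032026 on the plus strand, with 23.9 kb between them (mm10). The 250 bases before each start are shown because these genes gave the most parallel values of any pair among the 10. They are RefSeq sequences of build GRCm38.p6, for Krt8 from chr15:102004343-102004592 (minus strand) and for Krt18 from chr15:102027966-102028215 (plus strand), written 5′ to 3′.
Krt8: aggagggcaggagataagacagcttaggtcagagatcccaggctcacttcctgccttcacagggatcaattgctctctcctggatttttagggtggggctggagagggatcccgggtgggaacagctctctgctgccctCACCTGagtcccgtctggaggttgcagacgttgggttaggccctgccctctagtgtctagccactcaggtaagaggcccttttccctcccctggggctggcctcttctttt
Krt18: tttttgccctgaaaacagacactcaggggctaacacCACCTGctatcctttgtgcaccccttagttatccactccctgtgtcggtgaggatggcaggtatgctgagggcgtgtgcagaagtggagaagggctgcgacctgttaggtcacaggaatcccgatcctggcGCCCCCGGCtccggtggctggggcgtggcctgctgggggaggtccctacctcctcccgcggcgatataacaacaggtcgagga
Capitals mark matches on either strand to CACCTG, the E-box form bound by Snail factors, and to GCCNNNGGC, the AP-2 form. The E-box was at -111 to -106 before the start of Krt8 and at -214 to -209 before that of Krt18, and the AP-2 form was at -83 to -75 before Krt18. The marked stretches do not overlap. Over all 32851 promoters of the same length in the table, 17.2% held CACCTG, 13.7% held GCCNNNGGC and 1.79% held AACCNGTT, a grainyhead-like form. The table held promoters for 5 of the 10 genes (Krt8, Krt18, Grhl3, Tfap2a and Wnt6), of which 3 held CACCTG, 2 held GCCNNNGGC and none held AACCNGTT. A match is a string of letters and says nothing of binding in these embryos.

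The type II keratin Krt8 had 19.3, 16.6, 20.6 and 13.8 scaled RPM in null libraries A to D, against 19.5, 15.9 and 24.2 in WT libraries A to C. Its type I partner Krt18 had 27.6, 22.8, 28.9 and 20.4 scaled RPM in null, against 26.6, 23.2 and 32.2 in WT. In both genes null D was lowest and WT C highest, and the groups overlapped. Krt8 had a scaled log2 change of -0.17 (95% interval -0.56 to 0.22, limma adjusted p = 0.603). Krt18 had one of -0.14 (95% interval -0.47 to 0.20, limma adjusted p = 0.627). With WT library B left out the changes were -0.32 for Krt8 and -0.25 for Krt18 (limma adjusted p = 0.71 for both). On the deposited scale, where the median over all genes was 0.16 higher in null, they were 0.02 and 0.06. The sign of both thus depended on the scale, and both 95% intervals above include 0.

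The pair kept nearly one ratio in all 7 libraries. Krt8 over Krt18 was 0.677 to 0.731 in null and 0.683 to 0.752 in WT, so that the highest ratio was 1.11 times the lowest, the narrowest spread of all 45 pairs among the 10 genes. The median over the 45 pairs was 1.89 times. Reads of processed pseudogenes could bear on both keratins: the pseudogene Krt8-ps matched the Krt8 transcript at 98.6% identity over 941 bases, and Gm5200 matched Krt18 at 90.2% over 1269 bases. Neither pseudogene is a row of the table, and how reads with several matches were counted is not given in the sources used here.

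Krt19, a smaller type I keratin at chr11:100140810-100148665, followed the pair less closely than Krt8 and Krt18 followed each other. It had 12.8, 14.3, 13.7 and 13.4 scaled RPM in null, against 10.9, 10.2 and 16.0 in WT. All null libraries lay inside the wider WT range. The scaled log2 change was 0.16 (95% interval -0.17 to 0.50, limma adjusted p = 0.557). It was 0.04 without WT library B and 0.36 without WT library C. Krt19 over Krt18 averaged 0.556 ± 0.102 in null (SD, n = 4) and 0.448 ± 0.0447 in WT (SD, n = 3), with overlapping ranges. The highest of these ratios was 1.62 times the lowest, and for Krt8 over Krt19 it was 1.75 times. Both spreads were narrower than the median of 1.89 over the 45 pairs.

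Grhl2, a grainyhead-like factor that activates junction genes in epithelia (chr15:37233036-37363569), had the largest change of the 10. It had 15.3, 18.6, 18.4 and 12.8 scaled RPM in null, against 13.8, 6.75 and 13.4 in WT. Null D lay below WT A and C, so the groups overlapped, and WT B held 49.7% of the mean of the other 2 WT libraries. The scaled log2 change was 0.58 (SE 0.25, 95% interval -0.004 to 1.16, limma adjusted p = 0.352). Without WT library B it was 0.24 (limma adjusted p = 0.71). The antisense gene Gm16136 shares 169 exon bases with Grhl2 and is a row of the table, with reads in every library. Whether counting used strand is not given, so reads in the shared bases cannot be assigned.

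Grhl3, the family member whose loss is known to leave the caudal neural tube open in mice, lies at chr4:135541888-135573630. It had 12.2, 14.3, 9.68 and 18.5 scaled RPM in null, against 9.95, 8.68 and 16.9 in WT. Null C and null D were far apart and the groups overlapped. The change on the scaled log2 scale was 0.23 (95% interval -0.38 to 0.84, limma adjusted p = 0.655), and 0.04 without WT library B. Grhl3 did not run with Grhl2. The ratio of Grhl3 to Grhl2 was lowest in null C at 0.525 and highest in null D at 1.45.

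Tfap2a encodes AP-2 alpha, a factor of surface ectoderm and neural crest (chr13:40715675-40733823). It had 8.40, 8.18, 6.70 and 8.63 scaled RPM in null, against 7.58, 4.65 and 9.28 in WT. All null libraries lay inside the WT range. Its scaled log2 change was 0.20 (95% interval -0.30 to 0.71, limma adjusted p = 0.626) and turned to -0.08 without WT library B. Antisense genes overlap its exons by up to 380 bases and are not rows of the table.

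Trp63 encodes p63, the factor that commits surface ectoderm to stratified epidermis (chr16:25683763-25892102). It had 14.3, 16.0, 16.0 and 15.6 scaled RPM in null, against 16.1, 10.99 and 14.1 in WT. Apart from WT B the libraries lay between 14.1 and 16.1, a range of 0.19 on the log2 scale, the narrowest of the 10 genes. Trp63 had a scaled log2 change of 0.19 (95% interval -0.10 to 0.47, limma adjusted p = 0.445), and 0.03 without WT library B.

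Dlx5 encodes a distal-less homeobox factor of ectodermal borders and the ventral ridge of the tail (chr6:6877805-6882085). It was the lowest of the 10, with 212 to 299 reads in null and 120 to 191 in WT. It had 3.16, 4.29, 3.75 and 3.51 scaled RPM in null, against 2.79, 2.10 and 3.14 in WT. Every null library lay above every WT library, with null A just above WT C. This held for 1 of the 10 genes, against 6.51% of all genes with every null above every WT library; 0 of the 10 had every null below every WT library, against 6.24%. Dlx5 had a scaled log2 change of 0.47 (SE 0.18, 95% interval 0.06 to 0.88), with an unadjusted p of 0.0302 and an adjusted p of 0.352 in limma. Without WT library B the change was 0.30 (limma adjusted p = 0.71).

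Wnt6, a ligand made by surface ectoderm and known in chick to act on the epithelium of the somites, lies at chr1:74771892-74785319. It had 17.9, 17.0, 20.1 and 15.6 scaled RPM in null, against 15.9, 12.9 and 17.9 in WT. The groups overlapped, with WT B lowest and null C highest. The scaled log2 change was 0.19 (95% interval -0.10 to 0.48, limma adjusted p = 0.445), and 0.06 without WT library B.

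Esrp1 encodes an RNA-binding protein that sets epithelial splicing, among others of Fgfr2 (chr4:11331933-11386783). It had 22.5, 26.3, 26.0 and 23.8 scaled RPM in null, against 20.9, 10.4 and 23.4 in WT. Null A lay below WT C, and WT B held 46.8% of the mean of the other 2 WT libraries, the lowest share of the 10 genes. Esrp1 had a scaled log2 change of 0.52 (SE 0.25, 95% interval -0.05 to 1.08, limma adjusted p = 0.36). Without WT library B it was 0.15 (limma adjusted p = 0.71). The lincRNA Gm26663 on the other strand shares 127 exon bases and is not a row of the table. Esrp1 and Grhl2 kept their ratio within 1.41 to 1.86 in null and 1.51 to 1.75 in WT.

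**Figure D2:**
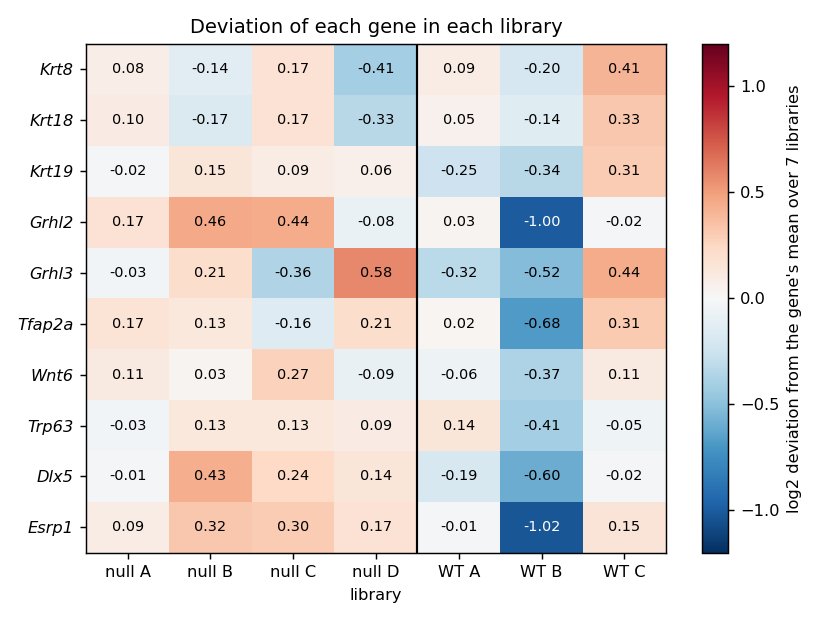
Scaled log2 value of each gene (rows) in each library (columns, null left of the line, WT right) minus the gene's mean over the 7 libraries, red above and blue below that mean. The WT B column is the lowest of its row for every gene except Krt8 and Krt18, and Grhl2 and Esrp1 are the darkest cells in it.

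WT library B was the lowest of the 7 libraries for 8 of the 10 genes, all but Krt8 and Krt18, against 22.7% of all genes. It was the highest for 0 of the 10, against 35% of all genes. Its mean deviation over the 10 was -0.53 on the scaled log2 scale, where the other libraries lay between -0.05 and 0.20. The drop was uneven. Relative to the mean of WT A and C, WT B held 46.8% to 55.2% of Esrp1, Grhl2 and Tfap2a, 64.7% to 76.3% of Grhl3, Dlx5, Trp63, Wnt6 and Krt19, and 72.7% and 79.0% of Krt8 and Krt18. The range over the 7 libraries was 1.46 log2 for Grhl2 and 0.54 once WT B was left out, and 1.34 and 0.33 for Esrp1. Over all genes kept, the median range over 7 libraries was 0.36.

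Null A and WT B share the last number in their column names, 18, while the other libraries have 21 or 22. The meaning of these numbers is not given in the sources used here. Grhl2 had a scaled log2 difference, null minus WT, of 1.18 within number 18, -0.07 within 21 and 0.42 within 22. For Esrp1 these were 1.116, 0.02 and 0.33. Dlx5 was above 0 within each number, at 0.59, 0.16 and 0.52, as was Grhl3 at 0.49, 0.13 and 0.24. Krt8 was at 0.28, -0.81 and -0.07. Each number holds 1 WT library, so these differences have no test. With these last numbers as a block, 0 of the 10 passed and the lowest adjusted p in limma was 0.191, for Dlx5. With the libraries of 21 and 22 alone, 0 passed and the median change of the 10 was 0.07. The first number in the names, also unexplained, is the same in null D, WT B and WT C, and the same in null B and null C. Null D minus the mean of WT B and WT C, the only set with both groups, was above 0 for 8 of the 10 genes on the scaled log2 scale, with a median of 0.36. It was -0.51 for Krt8 and -0.42 for Krt18, and no test is possible with 1 null library. That mean takes in WT B. Null D minus WT C alone was above 0 for Grhl3 (0.13), Trp63 (0.14), Dlx5 (0.16) and Esrp1 (0.02). It was below 0 for Grhl2 (-0.07), Tfap2a (-0.10), Wnt6 (-0.20), Krt19 (-0.25), Krt18 (-0.66) and Krt8 (-0.81).

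**Figure D3:**
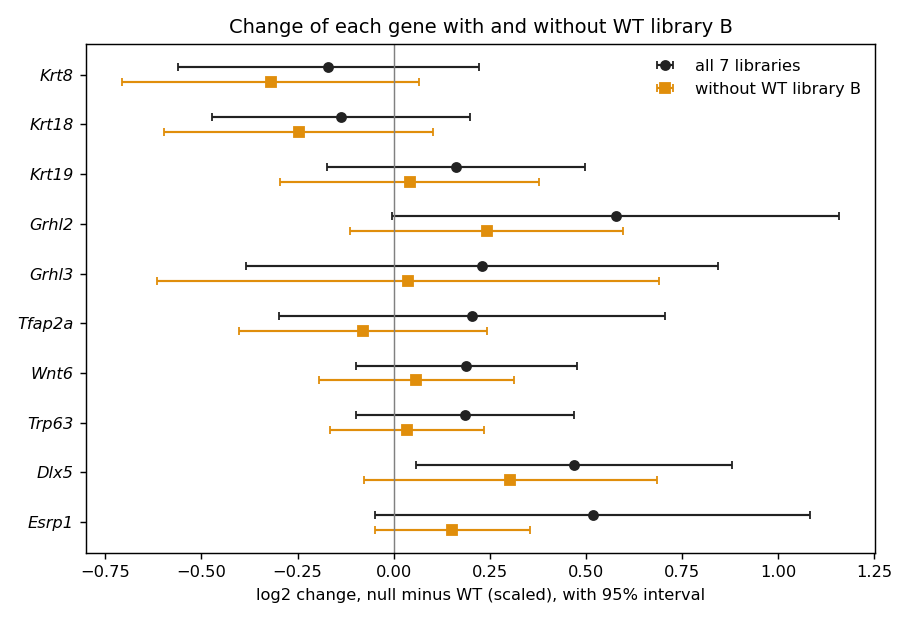
Scaled log2 change, null minus WT, of each gene with its 95% interval from limma, with all 7 libraries (black circles) and without WT library B (orange squares). Without that library every change moves down, and Grhl2 and Esrp1 move most, to 0.24 and 0.15.

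Measured against the other 8 genes, the paired keratins were lower in null than in WT in several ratios. Of the 45 pairs, 10 had ratios whose groups did not overlap, against 12.4% of all pairs of genes kept, and 8 of these set Krt8 or Krt18 over Wnt6, Dlx5, Esrp1 or Grhl2. Krt18 over Grhl2 was 1.81, 1.23, 1.57 and 1.60 in null, against 1.93, 3.44 and 2.41 in WT. Krt8 over Wnt6 was 0.885 to 1.08 in null and 1.22 to 1.35 in WT. Every WT library lay above every null library in both ratios. The other 2 pairs were Krt8 over Krt19, at 1.03 to 1.51 in null and 1.51 to 1.79 in WT, and Wnt6 over Dlx5, at 3.96 to 5.68 in null and 5.70 to 6.13 in WT. These ratios share genes with each other and were picked out after the values were seen, so they are a description without a test.

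Per kilobase of exon Krt18 and Krt8 had the highest mean levels of the 10 in both groups. Lengths are those of all exons merged in GENCODE M21, from 1.44 kb for Krt18 to 8.61 kb for Grhl2, so a gene with long rarely used exons is set low. Krt18 averaged 17.3 ± 2.80 scaled RPM per kb in null (SD, n = 4) and 19.04 ± 3.16 in WT (SD, n = 3). Krt8 followed at 8.99 ± 1.54 in null and 10.1 ± 2.14 in WT. Wnt6 was at 8.06 ± 0.862 in null and 7.10 ± 1.16 in WT, and Krt19 at 7.31 ± 0.345 in null and 6.66 ± 1.70 in WT. Krt8 and Wnt6 overlapped in range in each group, as did Wnt6 and Krt19. Grhl3 was at 4.90 ± 1.34 in null and 4.24 ± 1.58 in WT, and Esrp1 at 3.91 ± 0.2903 in null and 2.89 ± 1.099 in WT, with overlapping ranges. The lowest were Grhl2, Trp63, Tfap2a and Dlx5, between 1.62 and 1.89 on average in null and 1.18 and 1.64 in WT. These 4 overlapped with one another in each group, so their order is not resolved.

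The genes whose library profile was most like the mean profile of the 10 were Trim13, Igfbp3, Ehhadh, Anxa7 and Ctsc. Likeness was the root-mean-square difference of scaled log2 profiles over the 7 libraries, with each gene's mean removed, among 12551 genes. It was 0.040, 0.043, 0.045, 0.045 and 0.051 log2. All 5 had their lowest value in WT B, for example Anxa7 at 12.5 scaled RPM there against 15.6 and 20.1 in the other WT libraries and 17.4 to 19.1 in null. This follows from the choice, since the mean profile was itself lowest in WT B. None of the 5 passed the test. Distances of the 10 genes from their mean profile ran from 0.11 for Wnt6 to 0.31 for Grhl3. The 10 were not picked for likeness, so these distances cannot be set against those of the 5.

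Other genes listed for surface ectoderm and epithelia, 81 in 5 lists, gave 68 measured genes, and none passed the test in either direction in limma or in voom. Not all of them are particular to epithelium. Trp53 entered as a relative of Trp63, and Fgf8 is also in the presomitic list below. Tfap2b is also in the neural crest list, and Cdh1 and Epcam are also in the hindgut list. At an unadjusted p under 0.05 there were 19 higher and 0 lower in null, against 7.29% of all genes higher and 6.71% lower. Of the 68, 61 had a scaled log2 change above 0, with a median of 0.41. WT B was the lowest library in 56 of the 68. Without WT library B, 10 were higher at an unadjusted p under 0.05, against 4.77% of all genes, and the median was 0.16, against a median of -0.02 over all genes.

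Among relatives of the 10, 13 of 21 were measured, with a median change of 0.38, or 0.05 without WT B. At an unadjusted p under 0.05, 2 were higher, against 7.29% of all genes, and 0 without WT B, against 4.77%. Krt7, a simple keratin, had 14.5 ± 1.09 scaled RPM in null (SD, n = 4) and 13.9 ± 3.80 in WT (SD, n = 3). Esrp2, the paralogue of Esrp1, had 7.98, 11.01, 9.69 and 7.29 scaled RPM in null, against 6.73, 3.88 and 7.22 in WT. The groups did not overlap, and the scaled log2 change of Esrp2 was 0.63 (limma adjusted p = 0.352), or 0.35 without WT B. Trp53, of the same family as Trp63, averaged 50.3 ± 2.01 scaled RPM in null and 52.6 ± 3.42 in WT. The keratins of stratified epidermis were low in both groups, Krt5 at 2.14 to 4.22 scaled RPM in null and 2.24 to 3.13 in WT, and Krt14 at 1.70 to 3.40 in null and 1.80 to 2.95 in WT.

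Junction and adhesion genes were all measured, 22 of 22, with 21 changes above 0 and a median of 0.39, or 0.20 without WT B. At an unadjusted p under 0.05, 11 were higher, against 7.29% of all genes, and 5 without WT B, against 4.77%. Cdh1, the epithelial cadherin, had 28.3, 34.9, 31.6 and 28.7 scaled RPM in null, against 23.0, 13.2 and 26.5 in WT. The groups did not overlap, and the scaled log2 change was 0.62 (limma adjusted p = 0.352), or 0.32 without WT B. Desmoplakin, Dsp, a desmosome protein that binds keratin filaments, averaged 87.6 ± 8.93 scaled RPM in null and 79.3 ± 12.2 in WT. F11r, a tight junction adhesion molecule, was the exception, with a change of -0.23, or -0.07 without WT B, where its value was highest.

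Genes of epithelial proteases and of the grainyhead-like programme had the highest list median, 0.63 over 14 of 16 measured, or 0.20 without WT B. WT B was lowest in all 14. St14, the membrane protease matriptase, had 17.1, 22.5, 19.8 and 18.4 scaled RPM in null, against 10.9, 5.30 and 14.3 in WT. Tmprss2, a membrane protease, had 19.7, 22.3, 20.6 and 21.3 scaled RPM in null, against 13.1, 5.88 and 17.1 in WT. Null lay above WT in every library for both, with scaled log2 changes of 1.04 for St14 (limma adjusted p = 0.314) and 0.94 for Tmprss2 (limma adjusted p = 0.352). They were 0.63 and 0.49 without WT B. Spint2, an inhibitor of such proteases, had a change of 0.27, or 0.14 without WT B.

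Basal ectoderm and periderm genes had a median change of 0.51 over 11 of 14 measured, or 0.17 without WT B. Frem2, a basement membrane protein, averaged 73.5 ± 6.21 scaled RPM in null and 58.4 ± 14.3 in WT, with 41.9 in WT B, while its partner Fras1 averaged 45.4 ± 3.27 in null and 46.3 ± 2.78 in WT. Genes of the ectodermal ridge and its Wnt and BMP signals had a median of 0.31 over 13 of 15 measured, or 0.08 without WT B. Fgf17 averaged 36.1 ± 4.41 scaled RPM in null and 27.8 ± 12.3 in WT, with 14.9 in WT B. Which cells of the piece made the RNA of this list was not tested.

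**Figure D4:**
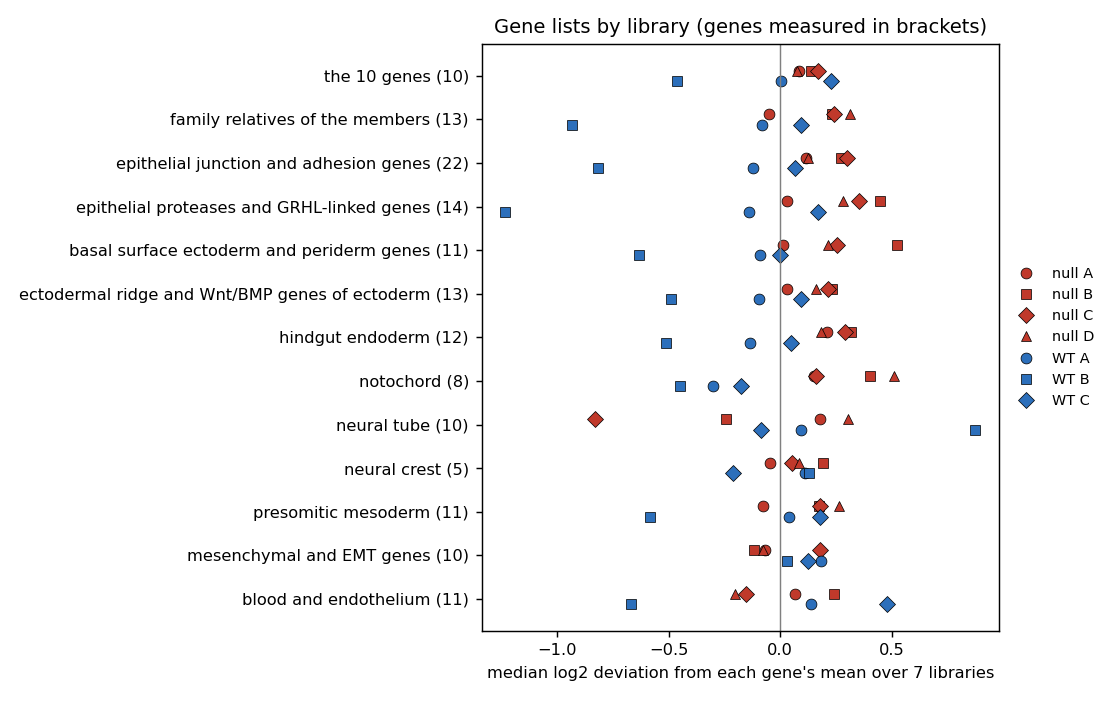
Median over each gene list of the scaled log2 deviation from the gene's mean over 7 libraries, by library, null in red above WT in blue, with the number of genes measured in brackets. WT B (blue square) is lowest for the 10 genes, at -0.46, and for the 5 epithelial lists. It is also lowest for hindgut (-0.51), notochord (-0.45), presomitic mesoderm (-0.58), and blood and endothelium (-0.67). For neural tube it is highest, at 0.88.

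Markers of several other cell types that the piece could hold also stood apart in WT B. Of 12 neural tube genes 10 were measured, and WT B was highest in 9. Their summed level was 119.5 to 193 scaled RPM in null and 175 to 276 in WT, with WT B at 276 and the other WT libraries at 175 and 176. Presomitic mesoderm genes, 11 of 12 measured, had WT B lowest in 6, with sums of 304 to 366 scaled RPM in null and 279 to 342 in WT. Hindgut genes, 12 of 16 measured, had WT B lowest in 7, with sums of 108 to 122 scaled RPM in null and 85.9 to 114 in WT. Cdh1 and Epcam are in both the hindgut and the junction list, and the other 10 measured hindgut genes had sums of 55.9 to 66.0 scaled RPM in null and 57.6 to 63.4 in WT, with WT B lowest in 5. Notochord genes, 8 of 8 measured, had WT B lowest in 4, with sums of 113 to 147 scaled RPM in null and 64.7 to 108 in WT. Blood and endothelium genes, 11 of 11 measured, had WT B lowest in 9, with sums of 218 to 278 scaled RPM in null and 167 to 306 in WT.

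Hindgut and notochord, whose cells also make Krt8, Krt18 and Krt19, had median changes of 0.45 and 0.57, and 0.29 and 0.56 without WT B. None of their genes passed the test, and 7 hindgut and 5 notochord genes were higher at an unadjusted p under 0.05, against 7.29% of all genes. Without WT B these counts were 3 and 4, against 4.77% of all genes, and 1 hindgut gene was lower. Without Cdh1 and Epcam, 5 hindgut genes were higher, or 2 without WT B, and the hindgut median was 0.45, or 0.31 without WT B. Foxa2 and Shh are in both the hindgut and the notochord list and stay in all these values. The counts, medians and sums of hindgut and notochord are therefore not independent. Chrd, a notochord gene that encodes a BMP antagonist, averaged 7.07 ± 1.07 scaled RPM in null and 4.05 ± 0.726 in WT (limma adjusted p = 0.207). Neural crest, a tissue that also makes Tfap2a, had a median of 0.17 over 5 of 8 measured, or 0.05 without WT B, which was lowest in 2 of the 5, with sums of 63.6 to 72.7 scaled RPM in null and 54.3 to 66.2 in WT. Mesenchymal genes had a median of -0.23 over 10 of 10 measured, with WT B lowest in 1 and highest in 2, and sums of 561 to 654 scaled RPM in null and 623 to 676 in WT. Of 8 amnion and yolk sac genes 2 were measured, with list sums of 31.9 to 47.5 scaled RPM in null and 38.2 to 123 in WT, the highest in WT C. No gene of any list that is in the table had 0 reads in all libraries. The part of these cell types in the values of the 10 genes was not tested.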

How the data were processed

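RNA-seq values of 7 libraries were taken from 1 table deposited by the authors, which holds log2 RPM (log2 of reads scaled to the library's denominator) per gene, per the file headers. bcl2fastq, TopHat2 2.0.12, edgeR and mm10 are named in the submitters' processing notes. The sources used here do not give the order of steps, counting tool, strand setting, annotation or treatment of multiple matches. Column names give genotype, sex and 3 numbers that match no label, so columns were mapped to groups and lettered in file order. Whether each library is a separate embryo is not labelled, so p-values may measure technical spread.

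Below 1000 reads, 100% of values were whole reads within 0.01, with a gene without reads listed at 0.9 read. A count of 0 allows up to 3 reads, or 0.0446 to 0.0507 RPM in null and 0.044 to 0.0483 RPM in WT, for counting error only. Reads in listed genes were 34.3% to 37.4% of the denominator in null and 28.8% to 37.9% in WT.

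The 13997 genes kept had log2 RPM over 0 in 3 or more libraries. Libraries were centred on their autosomal median. Null and WT were compared with limma 3.58.1 in R 4.3.3, with a trended prior and Benjamini-Hochberg adjustment over all genes kept, two-sided at 0.05. The fit was tested on simulated data. Exon lengths and overlaps are from GENCODE M21, and similar transcripts from BLAST 2.17.0 at 90% identity over at least 200 bases. Promoters are from RefSeq. Tables and figures were made in Python 3.11.15.

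The 10 genes, the lists and the tests were chosen with earlier results of these data known. All 10 genes were named. From each list the rule named up to 5 passing genes, or the 3 highest by level where none passed. Krt5, Krt14 and the pairs set as ratios were named after their values were seen.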

Additional observations from a re-analysis of the deposited data

How the results depend on the processing

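Other scales, other filters, a pseudocount of 1 RPM, a robust prior, library weights and leaving out each library on the scaled values called 0 of the 10 genes and 0 of the 68 epithelial genes. Over the 18 alternatives compared gene by gene, 176 of 180 changes kept their sign and their side of the threshold. These do not include the fits with 1 library left out on the deposited scale. The exceptions among the 180 were Krt8 (0.022) and Krt18 (0.057) on the deposited scale, and Tfap2a. Tfap2a was at -0.079 without WT library B and at -0.11 with the numbers 21 and 22 alone. On the scaled values it ranged from -0.079 to 0.42 when 1 library was left out. In the fits not included, all 10 changes were above 0 without null B, null D, WT A or WT C. Krt8 and Krt18 thus changed sign there too. Leaving out each library on the deposited scale was added after seeing the data; without WT library A, 5 of the 10 (Wnt6, Esrp1, Dlx5, Grhl2 and Trp63) were called, with 37 epithelial genes, and 4205 of all genes (30%); the median change of all genes was then 0.29. Over all libraries left out, called members ranged from 0 to 5, epithelial genes from 0 to 37 (4 without null library A and 1 without WT library B, on the deposited scale) and all genes from 2 to 4205. On the scaled values the count of all genes was 4 without null library B, WT library A or WT library C, and 5 without null library D; on the deposited scale it was 157 without null library A and 150 without WT library B. All genes called numbered 8 as reported, 16 with quantile normalization, 19 with cyclic loess and 13 with library weights. The planned count tests on recovered reads were not run, because the file holds log2 values; voom, chosen after seeing the data like the fits by column number, took their place. The cause of these differences was not tested. No paired analysis was possible because the columns carry none of the labels' replicate numbers; the fit blocked on the last number in the column names, which no source explains, called 0 of the 10. The lowest of the 10, Dlx5, rests on 120 to 299 reads per library.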
